A study of Mus musculus with 6 samples.

Results

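The methionine cycle and transsulfuration enzymes examined here were 9 genes, taken by symbol from a table of 17975 genes measured in mouse liver. They were Mat1a, Mat2a, Gnmt, Pemt, Ahcy, Bhmt, Bhmt2, Cbs and Cth, and all 9 were found and had enough reads to be tested. RNA was sequenced from whole liver tissue of 3 WT mice and of 3 Hom mice, 1 liver per mouse. Hom mice were NEK7 fl/fl and Alb-Cre+, so that Nek7 was deleted in hepatocytes through Cre driven by the albumin promoter. The labels do not give the state of the gene in other liver cells. The labels call the control genotype WT and give neither the age nor the sex of these mice. The labels state no treatment.

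The liver makes most of the S-adenosylmethionine (SAM) of the body from methionine. Methyltransferases turn SAM into S-adenosylhomocysteine (SAH), which is hydrolysed to homocysteine. Homocysteine is either methylated back to methionine, with betaine or folate as the donor, or passed through the transsulfuration pathway to cysteine, the limiting amino acid of glutathione. Mat1a and Mat2a encode the catalytic subunits that make SAM, the first in the adult hepatocyte and the second in most other cells and in growing or dedifferentiated hepatocytes. Gnmt methylates glycine and Pemt makes phosphatidylcholine from phosphatidylethanolamine, both using SAM. Ahcy hydrolyses SAH, Bhmt and Bhmt2 methylate homocysteine, and Cbs and Cth catalyse the steps from homocysteine to cysteine.

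Promoter sequence was available from RefSeq (GRCm38.p6) for 7 of the 9 genes, at 8 annotated starts since Pemt had 2 of them. Mat1a and Cth were not matched. The submitters' processing notes name mm9, so these positions belong to the reference and not to the deposited table. The 250 bases before the start are shown for Ahcy, Cbs and Gnmt, whose mRNAs fell in Hom livers, and for Mat2a, whose mRNA stayed close to the WT level after scaling. Each is written 5′ to 3′ on the strand of the gene, which was the minus strand for all 4, and capitals mark a CCAAT box or a GC box (GGGCGG) on either strand. The windows lie at chr2:155074498-155074747 for Ahcy, chr17:31637206-31637455 for Cbs, chr17:46729166-46729415 for Gnmt and chr6:72439557-72439806 for Mat2a.
Ahcy: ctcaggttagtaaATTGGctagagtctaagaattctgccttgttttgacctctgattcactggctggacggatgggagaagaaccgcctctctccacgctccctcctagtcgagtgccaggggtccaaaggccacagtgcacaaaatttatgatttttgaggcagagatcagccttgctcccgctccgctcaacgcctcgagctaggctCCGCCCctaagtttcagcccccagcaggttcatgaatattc
Cbs: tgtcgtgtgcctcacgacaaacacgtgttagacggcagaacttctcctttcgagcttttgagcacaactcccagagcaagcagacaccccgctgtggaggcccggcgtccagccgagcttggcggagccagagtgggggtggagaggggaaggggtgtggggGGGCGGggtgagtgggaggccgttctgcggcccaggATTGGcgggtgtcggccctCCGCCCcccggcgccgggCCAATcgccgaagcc
Gnmt: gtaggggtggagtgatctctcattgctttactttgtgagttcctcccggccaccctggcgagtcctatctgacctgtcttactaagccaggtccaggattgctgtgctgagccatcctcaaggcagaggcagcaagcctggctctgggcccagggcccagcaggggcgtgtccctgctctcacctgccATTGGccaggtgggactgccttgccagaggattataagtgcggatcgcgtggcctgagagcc
Mat2a: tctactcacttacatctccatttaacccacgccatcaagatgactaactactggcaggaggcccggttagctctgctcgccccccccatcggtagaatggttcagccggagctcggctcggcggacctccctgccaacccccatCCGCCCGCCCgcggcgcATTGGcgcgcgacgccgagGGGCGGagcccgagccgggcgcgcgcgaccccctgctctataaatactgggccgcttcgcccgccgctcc

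These 4 windows differed in base composition. The Mat2a window held 29 CpG dinucleotides, and 6.78% of the 32851 promoter windows of the same length held as many or more. Cbs held 21, Ahcy 9 and Gnmt 6, against a median of 6 over all windows. The lowest counts were those of Pemt, with 1 and 2 CpG before its 2 starts. A CCAAT box was found in 6 of the 8 windows of the enzymes and in 33.8% of all windows. It lay before Ahcy, Mat2a, Cbs, Bhmt, Gnmt and 1 of the 2 Pemt starts. The GC box was found before Mat2a, Cbs, Ahcy and Bhmt2 and in 32.7% of all windows; 2 of the 3 copies before Mat2a overlap. The motif AGGTCA, bound by nuclear receptors, occurred 3 times before Bhmt and once each before Ahcy and Gnmt, against 14% of all windows with at least 1 copy. A TATA box (TATAAA) was found before Mat2a alone among the 8, and in 12.4% of all windows. These matches describe letters in a window and do not show that a factor binds there.

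Each library held between 19349418 and 19730236 estimated counts. The groups were compared by the quasi-likelihood test of edgeR, with counts scaled by TMM factors to correct for the make-up of each library. Adjusted p-values are Benjamini-Hochberg values over all 13805 tested genes. Levels are given as CPM, the counts per 1e6 counts of a library after this scaling. Nek7 was at 62.9, 69.1 and 63.7 CPM in WT replicates 1, 2 and 3 and at 14.5, 18.1 and 16.7 CPM in Hom replicates 1, 2 and 3, so the labels were borne out in each liver. A pair of libraries stood apart from their groups. Hom replicate 1 had 0 counts of the Y-linked genes Ddx3y and Kdm5d, while every other liver had at least 243 of each. It had 4 counts of Eif2s3y and 149 of Uty, also Y-linked, against at least 582 and 464 in every other liver. In WT replicate 1 the 9 macrophage markers summed to 677 CPM, against 303 and 278 CPM in the other two WT livers. Enzyme results that rest on either library are given with and without it.

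Of the 9 enzymes, 4 were lower in the Hom group (adjusted p under 0.05), namely Ahcy, Cbs, Gnmt and Pemt, and 0 were higher. The other 5, Mat1a, Mat2a, Bhmt, Bhmt2 and Cth, did not pass the test. The background in this comparison was 20.1% of all tested genes lower and 21.5% higher, against 44.4% of the enzymes lower. In those 4 genes every Hom liver lay under every WT liver, as was the case for 27.0% of all tested genes. At an unadjusted p under 0.05 the count was again 4, and DESeq2 called the same number lower and 0 higher. The median log2 fold change (Hom against WT) of the 9 genes was −0.62, against 0.0 over all tested genes, and 7 of the 9 values were negative. In the same libraries 14 of 23 hepatocyte markers were lower, or 60.9%, with a median of −0.67. All 9 cholangiocyte markers were higher (median 3.18), 7 of 11 stellate cell and fibroblast markers were higher and 1 lower (median 1.53), and 4 of 8 endothelial markers were lower (median −0.71). In bulk tissue, fewer hepatocytes and less RNA per hepatocyte cannot be told apart, and the part of the marker shifts in the enzyme values was not tested.

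**Figure D1:**
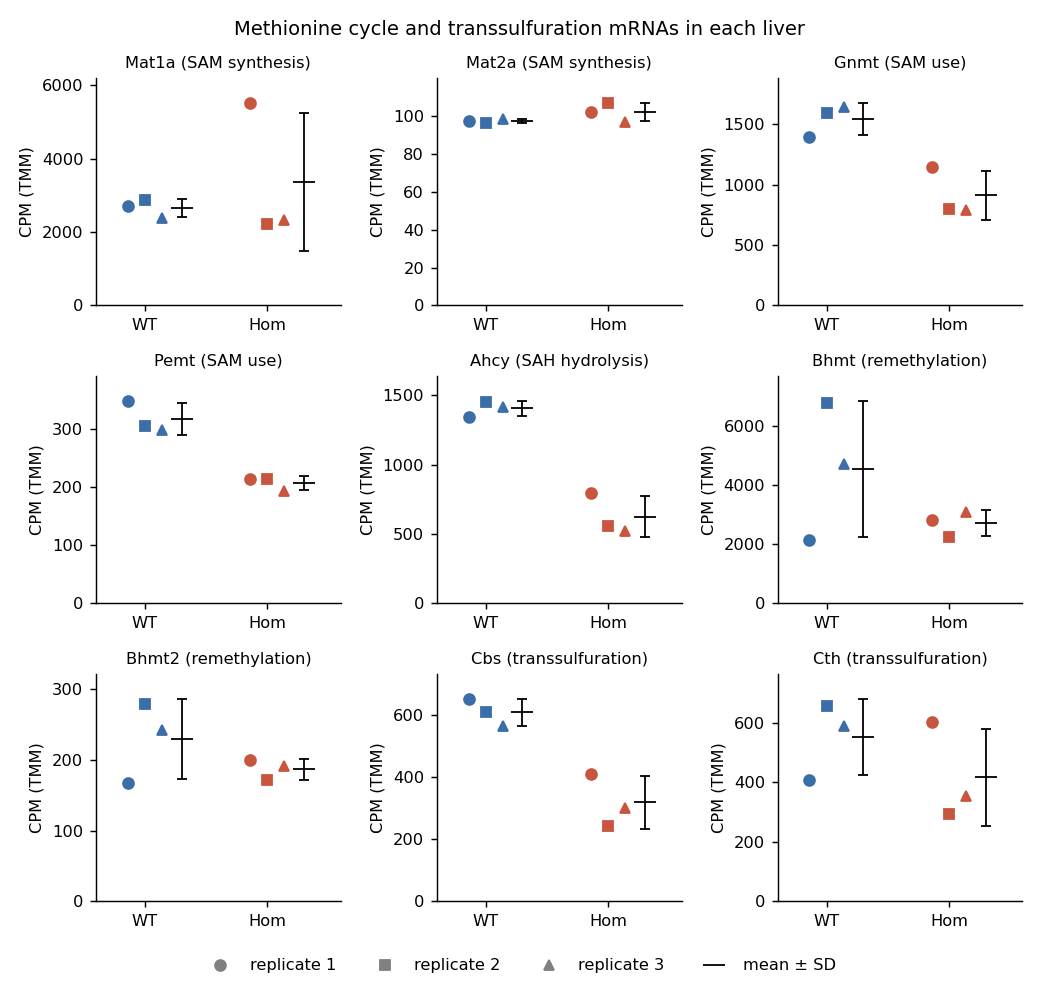
Level of each enzyme mRNA in CPM (TMM-scaled, linear axis from 0) in 3 WT (blue) and 3 Hom (red) livers; symbols mark the replicate number, and the black bar is the mean ± SD of 3 livers. The Hom livers lie under all WT livers for Gnmt, Pemt, Ahcy and Cbs, while for Mat1a Hom replicate 1 stands at 5525 CPM and for Bhmt WT replicate 1 stands at 2159 CPM, far from the rest of their groups.

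The 2 genes for SAM synthesis were not called in either direction. Mat1a (NCBI Gene 11720) was at 2699, 2875 and 2396 CPM in WT replicates 1, 2 and 3 and at 5525, 2234 and 2336 CPM in Hom replicates 1, 2 and 3. One liver, Hom replicate 1, was far above all others, and the other two Hom livers lay just under the lowest WT liver. The log2 fold change was 0.34 (standard error 0.364, adjusted p = 0.479 by the edgeR test). Without Hom replicate 1 it turned to −0.22 (adjusted p = 0.276), so that the sign of the mean difference rested on that liver. Mat2a (NCBI Gene 232087) was at 97.6, 96.1 and 98.3 CPM in WT livers and at 102, 107 and 97.0 CPM in Hom livers. The groups overlapped, and the spread was small in both, with a coefficient of variation of 1.13% in WT and 4.77% in Hom livers. Its log2 fold change was 0.06 (standard error 0.073, adjusted p = 0.505 by the edgeR test). This near-zero value is relative to TMM scaling: with library size alone it was 0.52 and past the threshold (adjusted p = 0.00691).

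The balance of the SAM-making isozymes can be read within each liver, where no scaling between libraries enters. Per length, Mat2a stood at 4.16%, 3.85% and 4.72% of Mat1a in WT replicates 1, 2 and 3. It stood at 2.12%, 5.50% and 4.78% in Hom replicates 1, 2 and 3. The Hom values lay on both sides of the WT range, with the lowest in the liver where Mat1a was highest. The mean log2 ratio was −4.56 ± 0.149 (SD, n = 3 mice) in WT and −4.71 ± 0.743 (SD, n = 3 mice) in Hom livers, a difference of −0.15 (exact two-sided permutation test, p = 1.0; 3 mice against 3 cannot go under 0.1). Without Hom replicate 1 the difference was 0.28 (p = 0.2, exact permutation test). Mat2b, which encodes the regulatory subunit that binds the Mat2a product, was at 20.8 CPM in WT and 24.4 CPM in Hom livers (log2 fold change 0.23, adjusted p = 0.0715 by the edgeR test).

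The mRNAs of both SAM-using enzymes fell. Gnmt (NCBI Gene 14711), whose product is an abundant hepatocyte enzyme that disposes of excess SAM, was at 1395, 1597 and 1646 CPM in WT livers and at 1145, 803 and 788 CPM in Hom livers. The groups did not overlap, and Hom replicate 1 was the nearest to the WT range. The Hom mean was 59.0% of the WT mean, which is −0.76 on the log2 scale (standard error 0.188, adjusted p = 0.0176 by the edgeR test). This call was lost when WT replicate 2, WT replicate 3, Hom replicate 2 or Hom replicate 3 was left out (adjusted p = 0.0562, 0.0534, 0.0644 and 0.0701). Pemt (NCBI Gene 18618) was at 349, 305 and 299 CPM in WT livers and at 214, 214 and 193 CPM in Hom livers. Its groups were well apart, and the 3 Hom livers lay close together. The Hom mean was 65.2% of the WT mean, which is −0.62 on the log2 scale (standard error 0.106, adjusted p = 0.00476 by the edgeR test), and the call held with each liver left out. Both calls depended on the scaling. They held with upper-quartile factors (adjusted p = 0.0266 for Gnmt and 0.0088 for Pemt by the same test) and were lost with library size alone. There the log2 fold change was −0.31 for Gnmt (adjusted p = 0.12) and −0.17 for Pemt (adjusted p = 0.34) by the same test.

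Ahcy showed the lowest log2 fold change of the 9 genes. Ahcy (NCBI Gene 269378) encodes the enzyme that removes SAH, an inhibitor of most methyltransferases. It was at 1347, 1454 and 1418 CPM in WT livers and at 794, 558 and 522 CPM in Hom livers, so that no Hom liver came near the WT range. The mean fell from 1407 ± 54.3 CPM (SD, n = 3 mice) to 625 ± 148 CPM (SD, n = 3 mice), or 44.4% of WT. The log2 fold change was −1.17 (standard error 0.187, adjusted p = 0.00361 by the edgeR test), and 4.07% of all tested genes had a lower value. Of the 23 hepatocyte markers, 5 had a lower log2 fold change than Ahcy. Leaving out 1 liver at a time gave −1.06 to −1.38, each past the threshold. Ahcyl1 and Ahcyl2, relatives of Ahcy that do not act as SAH hydrolases, had log2 fold changes of −0.15 and −0.22 (adjusted p = 0.2 and 0.123 by the edgeR test). Adk, the kinase that removes the adenosine released by Ahcy, was at 506 CPM in WT and 503 CPM in Hom livers (log2 fold change −0.01, adjusted p = 0.963 by the same test).

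The homocysteine methyltransferases Bhmt and Bhmt2 overlapped between the groups, and WT livers were spread widely for both. Bhmt (NCBI Gene 12116) was at 2159, 6767 and 4711 CPM in WT livers and at 2816, 2243 and 3082 CPM in Hom livers. WT replicate 1 lay under every Hom liver, and the other two WT livers lay above every Hom liver. Its coefficient of variation was 50.8% in WT livers, against a median of 8.33% over the 2858 genes with a mean of at least 50 CPM. The log2 fold change was −0.74 (standard error 0.393, adjusted p = 0.169 by the edgeR test), and without WT replicate 1 it was −1.09 (adjusted p = 0.0181). Without WT replicate 2 it moved the other way, to −0.34 (adjusted p = 0.497 by the same test). Bhmt2 (NCBI Gene 64918), whose product uses S-methylmethionine as the methyl donor, was at 168, 279 and 243 CPM in WT livers and at 200, 171 and 191 CPM in Hom livers. WT replicate 1 was again the lowest of the 6 livers. The log2 fold change of Bhmt2 was −0.30 (standard error 0.186, adjusted p = 0.235), and without WT replicate 1 it was −0.49 (adjusted p = 0.0219), both by the edgeR test. Without WT replicate 2 it was −0.14 (adjusted p = 0.579 by the same test).

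Bhmt and Bhmt2 are related genes, and both lie on chromosome 13. Their estimated counts were fractional in all 6 livers, yet the 2 counts added up to a whole number in all 6, within 0.015 of a read. Reads that match both genes were therefore divided between them, and the split between the 2 levels is uncertain. Counted together they were at 2330, 7050 and 4950 CPM in WT and at 3020, 2410 and 3270 CPM in Hom livers, and differed by −0.72 on the log2 scale (standard error 0.38, adjusted p = 0.172 by the edgeR test). Counts of Mat2a and Ahcy were also fractional in 6 livers and those of Pemt in 3, while Mat1a, Gnmt, Cbs and Cth had whole counts throughout.

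The 2 transsulfuration enzymes did not give the same call. Cbs (NCBI Gene 12411), which condenses homocysteine with serine to cystathionine, was at 653, 610 and 566 CPM in WT livers and at 411, 243 and 302 CPM in Hom livers. The groups did not overlap, and the Hom mean was 52.3% of the WT mean. Its log2 fold change was −0.94 (standard error 0.199, adjusted p = 0.0102 by the edgeR test), and the call held with each liver left out. With library size alone it was −0.50 (adjusted p = 0.0497 by the same test). Scaled to the median and to the sum of hepatocyte markers, it was −0.28 and −0.04 (adjusted p = 0.144 and 0.873 by that test). Cth (NCBI Gene 107869), which cleaves cystathionine to cysteine, was at 409, 659 and 590 CPM in WT livers and at 602, 294 and 355 CPM in Hom livers. Hom replicate 1 fell inside the WT range and the other two Hom livers lay under it. The log2 fold change of Cth was −0.41 (standard error 0.3, adjusted p = 0.307 by the edgeR test), and it was −0.77 without Hom replicate 1 (adjusted p = 0.0416). Without WT replicate 2 and without Hom replicate 2 it was −0.27 and −0.21 (adjusted p = 0.582 and 0.621 by the same test). Per length, Cbs stood at 114%, 66.4% and 68.8% of Cth in WT replicates 1, 2 and 3 and at 49.1%, 59.4% and 61.0% in Hom replicates 1, 2 and 3.

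Levels of different genes are compared as TPM, which is per length. In WT livers the order ran from Bhmt (3129 ± 1373 TPM, SD, n = 3 mice), Gnmt (2255), Mat1a (1132), Ahcy (811), Pemt (484), Cth (448), Cbs (361) and Bhmt2 (160) to Mat2a (47.5 ± 4.72). The neighbours Bhmt and Gnmt, Pemt and Cth, and Cth and Cbs were not apart beyond the spread of the 3 livers, whereas each other pair of neighbours had separate ranges. In Hom livers the mean order was Bhmt, Mat1a, Gnmt, Ahcy, Cth, Pemt, Cbs, Bhmt2 and Mat2a. Mat1a stood above Gnmt, and Cth above Pemt, in only 1 Hom liver, Hom replicate 1. In the Hom group, Bhmt, Mat1a and Gnmt overlapped in turn, as did Ahcy, Cth and Pemt. TPM adds up to a fixed total per liver and carries no correction for library make-up. On that scale Mat2a was at 43.8 to 52.8 in WT and at 71.0 to 84.8 in Hom livers.

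The scaling of the libraries set the direction of several of these genes. Scaling by library size alone moved the median over all genes from 0.0 to 0.45 (log2 fold change), and higher genes then made up 91.1% of calls, against 51.7% with TMM factors. Under it 2 of the 9 enzymes, Ahcy and Cbs, were lower and 1, Mat2a, was higher, beside 4.65% lower and 47.6% higher over all tested genes. The signs of Bhmt2 and Cth turned positive. When the libraries were scaled to the summed counts of 23 hepatocyte markers, of which Alb gave 51.8%, the median of all genes was 0.94. Then 0 enzymes were lower and 3, Mat1a, Mat2a and Bhmt2, were higher, beside 1.66% lower and 75.4% higher over all tested genes. Scaling to the median ratio of the same markers, a choice made after the data were seen, moved the median of all genes to 0.67. Ahcy was then lower and Mat1a and Mat2a were higher, beside 2.78% lower and 66.7% higher over all tested genes. Relative to the median of all genes, the log2 difference of Ahcy was −1.17, −1.18, −1.20 and −1.19 under these 4 scalings. A change of scaling shifts all genes of a library alike, so these values were bound to lie close together. The log2 fold change of Ahcy itself was −0.27 with summed markers (adjusted p = 0.297 by the edgeR test). Set against hepatocyte markers, the log2 fold changes of Gnmt and Pemt were −0.10 and 0.06 (median of markers) and 0.14 and 0.33 (sum of markers), and none of these 4 values passed the edgeR test.

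**Figure D2:**
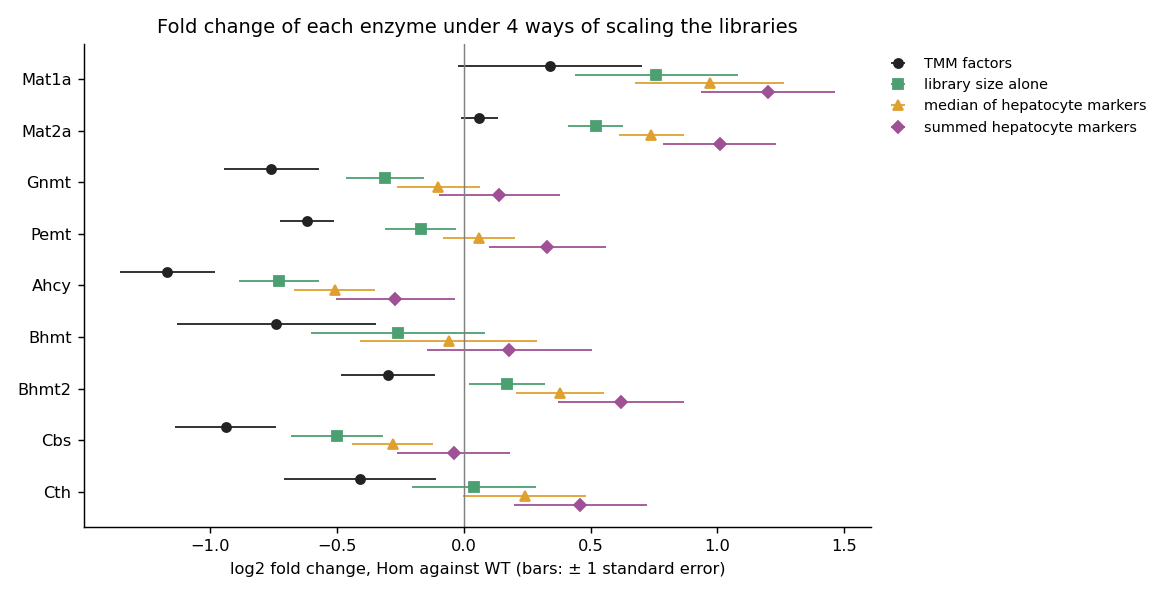
Log2 fold change of each enzyme, Hom against WT livers (horizontal axis), under 4 ways of scaling the libraries; bars are ± 1 standard error. All 9 genes shift upward together from TMM factors to library size and to hepatocyte markers, and only Ahcy (−1.17 to −0.27) and Cbs (−0.94 to −0.04) stay negative under all 4. With summed hepatocyte markers neither of them passed the edgeR test (adjusted p = 0.297 and 0.873).

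Ratios between these mRNAs within a liver were also read, as descriptions chosen after the values were seen. Per length, Ahcy stood at 68.0%, 68.9% and 80.6% of Mat1a in WT replicates 1, 2 and 3 and at 19.6%, 34.0% and 30.4% in Hom replicates 1, 2 and 3. No Hom liver reached the WT range, with or without Hom replicate 1. Gnmt stood at 179%, 192% and 238% of Mat1a in WT livers and at 71.7%, 124% and 117% in Hom livers, again with no overlap. The difference in mean log2 ratio (Hom minus WT) was −1.41 for Ahcy to Mat1a and −0.99 for Gnmt to Mat1a. The scaling of the libraries does not enter these ratios, and no test was made of them.

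**Figure D3:**
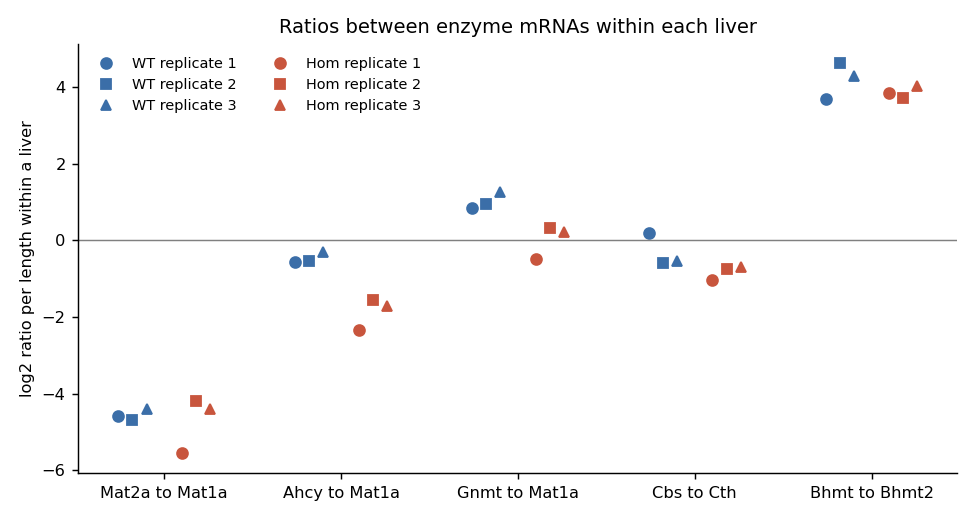
Log2 ratio of 2 mRNAs per length within each liver (vertical axis) for 5 pairs; blue marks WT, red marks Hom, and symbols mark the replicate number. Ahcy to Mat1a and Gnmt to Mat1a are lower in all 3 Hom livers than in any WT liver, as is Cbs to Cth, while Mat2a to Mat1a and Bhmt to Bhmt2 overlap between groups.

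The other genes of methionine, one-carbon and sulfur metabolism were taken from 7 lists with 66 genes, of which 65 were tested. In the Hom group 26 of them (40.0%) fell and 6 (9.23%) rose, and their median was −0.23 on the log2 scale, beside 20.1% lower and 21.5% higher over all tested genes. By library size alone the counts were 12 lower and 22 higher of 65, beside 4.65% lower and 47.6% higher over all genes. The counts by list are to be read against these shares.

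The list for choline uptake and oxidation through betaine had a median of −1.01, the lowest of the 7, with 4 of 6 genes lower and 0 higher. Dmgdh and Sardh, mitochondrial enzymes that strip the methyl groups left after betaine donates its first, had log2 fold changes of −1.39 and −1.22 (adjusted p = 0.00591 and 0.00225). Pipox, which oxidises sarcosine and pipecolate, fell by 1.02 on the log2 scale (adjusted p = 4.78e-04). Aldh7a1, which makes betaine from its aldehyde, had a value of −1.0 (adjusted p = 0.00187). Chdh, which makes that aldehyde from choline, was at 215 CPM in WT and 200 CPM in Hom livers (−0.11, adjusted p = 0.519). These adjusted p-values and those in the next 3 paragraphs are from the same edgeR test.

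In the folate cycle and folate-dependent remethylation, 8 of 17 tested genes were lower and 1 was higher (median −0.59). Ftcd, which channels histidine carbon into folate, had the lowest value (−1.09, adjusted p = 0.0109). Mtr, the methionine synthase that uses folate to remethylate homocysteine, was at 12.1 CPM in WT and 10.1 CPM in Hom livers (−0.26, adjusted p = 0.223). Mthfd1l, a mitochondrial formate-producing enzyme, was the gene that rose (2.18, adjusted p = 0.0319), but from only 1.06, 0.257 and 0.676 CPM in WT livers to 5.55, 2.06 and 1.64 CPM in Hom livers. Without Hom replicate 1, the highest of them, it was 1.45 (adjusted p = 0.0744), and the call was also lost without WT replicate 2, WT replicate 3 or Hom replicate 2 (adjusted p = 0.0905, 0.0802 and 0.0504). Aldh1l2 had too few counts to be tested.

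Among genes that use cysteine or its sulfur, 5 of 11 were lower and 1 was higher (median −0.46). Gclc, the catalytic subunit of the first enzyme of glutathione synthesis, was at 516, 352 and 341 CPM in WT livers and at 105, 179 and 144 CPM in Hom livers. All Hom livers lay far under the WT livers (log2 fold change −1.50, adjusted p = 0.00382). Gclm, its modifier subunit, was at 151 CPM in WT and 146 CPM in Hom livers (−0.05, adjusted p = 0.688), and Gss, which completes glutathione, rose (0.38, adjusted p = 0.031). The Gss call was lost when any liver but WT replicate 1 was left out (adjusted p = 0.0628 to 0.11). Mpst and Tst, related sulfurtransferases, had log2 fold changes of −1.29 and −1.06 (adjusted p = 6.88e-04 and 0.00116). Cdo1, which commits cysteine to taurine and sulfate, was at 2049 CPM in WT and 1248 CPM in Hom livers (−0.71, adjusted p = 0.0126, and 0.0584 without Hom replicate 3).

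Of 7 other methyltransferases of small molecules, 3 were lower and 1 higher (median 0.14). Inmt, an amine methyltransferase, fell from 517, 333 and 412 CPM to 41.1, 132 and 94.5 CPM (log2 fold change −2.24, adjusted p = 0.00593). Nnmt, which methylates nicotinamide, was at 83.9, 108 and 85.7 CPM in WT and at 315, 79.9 and 114 CPM in Hom livers, with the high value in Hom replicate 1, the liver with the high Mat1a level (0.88, adjusted p = 0.179, and 0.07 with adjusted p = 0.788 without that liver). In the routes that make phosphatidylcholine and phosphatidylethanolamine from choline and ethanolamine, 4 of 10 genes were lower and 1 was higher (median −0.34). Selenoi, the ethanolamine phosphotransferase, had the lowest value (−0.67, adjusted p = 0.00148), and Pcyt1b rose (2.45, adjusted p = 0.00212) from a mean of 0.34 CPM to 1.89 CPM. Polyamine synthesis and methionine salvage had 2 of 10 genes lower and 2 higher (median −0.04), shares close to those over all genes, from Adi1 at −0.53 (adjusted p = 0.00457) to Sat1 at 0.93 (adjusted p = 0.00372). Sat1 encodes the enzyme that acetylates polyamines for their breakdown. None of the 4 partners of the SAM synthases and of Ahcy passed the threshold, from Ahcyl2 (−0.22, and −0.30 with adjusted p = 0.0475 without WT replicate 1) to Mat2b. With library size alone, Adi1, Selenoi and Cdo1 were no longer past the threshold, and Mat2b, Ahcyl1, Adk, Gclm and Nnmt were higher (0.69, 0.31, 0.43, 0.40 and 1.29).

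**Figure D4:**
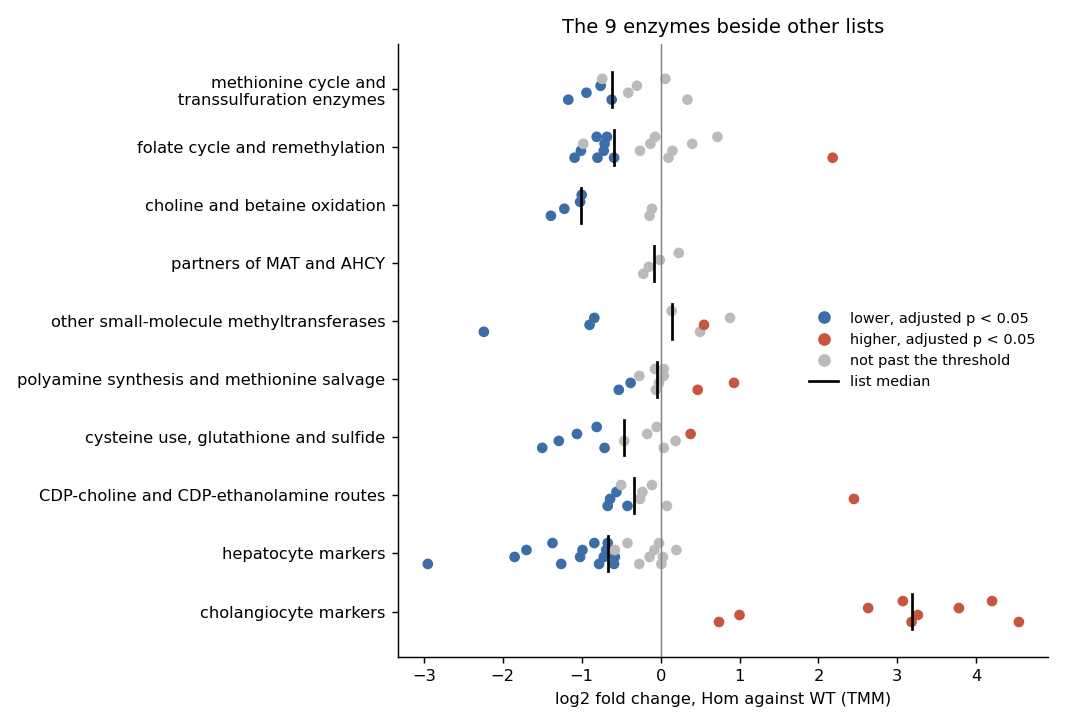
Log2 fold change, Hom against WT (TMM, horizontal axis), of each tested gene in the 9 enzymes, 7 lists of related pathways, hepatocyte markers and cholangiocyte markers; blue and red mark genes past an adjusted p of 0.05 and the black line is the list median. The medians of the 9 enzymes (−0.62) and of the hepatocyte markers (−0.67) lie close together, and all 9 cholangiocyte markers lie to the right of 0.

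Across the 6 livers, the tested genes whose log2 CPM followed Mat1a most closely were Itih2, Dap and Muc16 (Pearson r = 0.9955, 0.9837 and 0.9807 over 6 livers). Muc16 was at a mean of only 0.488 CPM in WT and 1.8 CPM in Hom livers (log2 fold change 1.87). The closest genes for Mat2a were Ammecr1, Commd8 and Haghl (r = 0.9956, 0.9820 and 0.9751). All of them are the best matches among 13805 genes over 6 livers that share a few libraries with extreme values, and they are given as a description.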

How the data were processed

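RNA from 6 mouse livers (3 WT, 3 Hom) was extracted with Trizol and sequenced on the DNBSEQ platform. The submitters' processing notes name HISAT2 2.0.4, Bowtie2 2.2.5, RSEM 1.2.12 and mm9 without their roles; the annotation and the strand setting are not given in the sources used here. The authors deposited estimated counts (expected counts, 65.9% of them whole), FPKM and TPM values per liver. The deposited group means carry crossed names and were not used. Counts were rounded and fitted for the whole table with edgeR 4.0.16 in R 4.3.3 (filterByExpr, TMM, quasi-likelihood test, Benjamini-Hochberg adjusted p under 0.05, no minimum fold change). FPKM served to recover gene length (known for 98.9% of tested genes); TPM was used for levels between genes. Ratios used a pseudocount of 0.5 counts. The enzymes, the gene lists and the rules for naming genes were chosen with earlier results of these data known. Every enzyme was named, and in each related list the genes with the highest and the lowest log2 fold change and those called with a change of 1 or more on that scale; others named in those lists (Mtr, Gclm, Cdo1, Ahcyl1, Adk) were added after their values were seen, for their role. One gene that this rule names is not reported here. Likeness to Mat1a and Mat2a was taken on log2(CPM + 0.5). Marker lists covered hepatocytes, cholangiocytes, stellate cells, macrophages, endothelium, lymphocytes (3 of 5 tested genes higher, 0 lower) and cycling cells (8 of 8 higher); 2 of 9 macrophage markers were higher and 1 lower. No pair of libraries within a group was alike to within counting error (lowest chi-square over its degrees of freedom 23.8). The procedure was tested on simulated counts: of 188 genes changed by 1 on the log2 scale and tested, 87.2% were recovered among 13184 genes. The simulation drew as many raised as lowered genes, with a fixed spread between livers. It therefore does not test the scaling of the libraries. WT and Hom livers share replicate numbers but are different mice. The alternatives were DESeq2 1.42.0, library size alone, upper-quartile factors, scaling to summed hepatocyte markers, a minimum of 10 counts per liver, no filter, a loess correction for gene length, the replicate block, each liver left out, and a minimum fold change; scaling to the median hepatocyte marker, summing Bhmt with Bhmt2, and refits for the named related genes were added after the data were seen.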

Additional observations from a re-analysis of the deposited data

How the results depend on the processing

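The count of 4 enzymes lower and 0 higher was unchanged with DESeq2, upper-quartile factors, a minimum of 10 counts per liver, the unfiltered table, the gene length correction and the replicate block. With library size alone 2 were lower and 1 higher, with summed hepatocyte markers 0 and 3, with the median of hepatocyte markers 1 and 2, and with a required change of 1 on the log2 scale 1 was lower and 0 higher. Without 1 liver, 3 to 6 were lower: 6 without WT replicate 1, 5 without Hom replicate 1 and 3 without each of the others. The related genes, 26 lower and 6 higher, gave 12 and 22, 1 and 37, and 7 and 31 under the first 3 of these settings, 10 and 2 with the minimum fold change, and 23 to 29 lower and 2 to 5 higher without 1 liver (2 higher without WT replicate 2 or WT replicate 3, and 3 without Hom replicate 2). Signs that turned were, with library size alone, Bhmt2 (0.17) and Cth (0.04); with summed hepatocyte markers, Gnmt (0.14), Bhmt (0.18), Bhmt2 (0.62), Cth (0.46) and Pemt (0.33); with the marker median, Bhmt2 (0.38), Cth (0.24) and Pemt (0.06); and without Hom replicate 1, Mat1a (−0.22, against 0.27 to 0.56 without 1 of the others). A change of scaling shifts all genes by the same amount within a library. The Mat2a to Mat1a difference was −0.41 to 0.28 with 1 liver left out, positive without Hom replicate 1 alone, and −0.15 with TPM. Same-numbered livers did not deviate together (correlations of −0.11, −0.06 and −0.05), so they share only a number; with that number as a replicate block 2214 genes were lower and 2383 higher over the table, against 2780 and 2974, 4 enzymes were lower, and the Mat2a to Mat1a difference was −0.15. Across the table, 642 genes were lower and 6574 higher with library size alone, 229 and 10406 with summed hepatocyte markers, 384 and 9205 with the marker median, and 2060 and 3477 with upper-quartile factors (62.8% of calls higher), and without 1 liver 1767 to 2750 were lower. The lowest count of any of the 9 enzymes in a liver was 1499 (Mat2a, WT replicate 2), so depth did not limit their detection.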
